A study of Mus musculus with 4 samples.

Results

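The genes of the cytosolic ribosomal proteins were described in RNA-seq data of the mouse mammary carcinoma line 4T1, comparing wild-type cells (WT) with cells in which Dhodh was knocked out (KO). Members were the genes whose symbol begins with Rpl or Rps and a digit or with Rplp, together with Rpsa, and without S6 kinases and symbols of pseudogenes. This gave 89 of the 16695 genes in the table, 33 of the small (40S) subunit, 54 of the large (60S) subunit and 2 that carry such a symbol but are not ribosomal proteins. These 2 are Rps19bp1, which encodes a binding partner of Rps19, and Rps23rg1, a retrogene. Each genotype had 2 libraries of total RNA, and the comparison asked how expression differs between the genotypes. DHODH, the target, is the mitochondrial enzyme that makes orotate for pyrimidine nucleotides. Nothing in the labels tells whether the KO cells were 1 clone, how the gene was disrupted, or whether replicates were separate cultures, so p-values cover only the spread between these libraries.

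A ribosome holds 1 copy of nearly every ribosomal protein, and its RNA is built from nucleotides, among them the pyrimidines uridine and cytidine. Mammalian messenger RNAs of ribosomal proteins are short, abundant and long-lived. They begin with a run of cytosine and uracil, the terminal oligopyrimidine tract, through which growth signals of the mTOR pathway control their translation. Some members have a second, variant gene copy that can replace the main copy in the ribosome, and many have processed pseudogenes. Reads shared between such copies could have been divided among them or dropped by the authors' counting, so levels of single members, most of all of Rpl21 and the retrogene copies, are uncertain.

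The values were FPKM, in which read numbers are divided by gene length and library size. FPKM steps gave back whole reads for all 89 members, and the recovered reads of all genes summed to between 32792040 and 35681914 per library. In the 86 members with a mean of at least 1 FPKM, which were tested, single values rested on 16 to 102926 reads. Dhodh RNA was still present in KO, at 9.67 and 8.69 FPKM against 10.9 and 10.3 FPKM in WT, so the RNA level alone does not show the knockout. The epithelial markers Krt8, Krt18, Krt14, Epcam and Cdh1 were detected in every library and summed to 1254 to 1351 FPKM. Of 11 heart muscle markers besides Tnnt2, which all libraries expressed, 7 to 9 were at 0 in the WT libraries and KO replicate 1. In KO replicate 2 none was at 0, and they summed to 118 FPKM against 0.147 to 2.05 FPKM in the other libraries. Markers of skeletal muscle, fibroblasts, immune cells and testis summed to 11.1, 8.53, 3.68 and 2.80 FPKM in KO replicate 2, and to at most 2.92, 3.11, 0.657 and 0.0454 FPKM elsewhere. The part of these transcripts in the results was not tested, and the counts without KO replicate 2 stand beside the main ones. A bulk value cannot tell fewer expressing cells from less RNA per cell.

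The starts of 8 members with large changes are shown because the pyrimidine tract of this gene class begins where transcription starts. They are RefSeq promoter sequences of build GRCm38.p6, 5′ to 3′, from 40 bases before to 30 bases after the listed start, and capitals mark the longest run of C and T in the window, wherever it lies. Where runs tie in length, as in Rpl41 and Rps23, only the first is marked. The annotated start lies within the marked run for Rpl15 and Rps27 only. The first group of sequences belongs to members that were lower in KO and the second to members that were higher.
Rpl41: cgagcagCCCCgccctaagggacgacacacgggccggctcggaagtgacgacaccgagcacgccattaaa
Rps26: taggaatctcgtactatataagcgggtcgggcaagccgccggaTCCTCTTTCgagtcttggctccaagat
Rpl15: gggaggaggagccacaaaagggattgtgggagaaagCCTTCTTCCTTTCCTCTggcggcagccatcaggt
Rplp0: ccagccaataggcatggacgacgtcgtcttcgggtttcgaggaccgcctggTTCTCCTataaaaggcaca
Rpl22: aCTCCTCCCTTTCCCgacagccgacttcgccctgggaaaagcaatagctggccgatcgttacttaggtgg
Rps27: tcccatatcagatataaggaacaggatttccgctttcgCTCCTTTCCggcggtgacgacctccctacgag
Rps23: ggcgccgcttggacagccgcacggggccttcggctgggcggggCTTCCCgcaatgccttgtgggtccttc
Rps25: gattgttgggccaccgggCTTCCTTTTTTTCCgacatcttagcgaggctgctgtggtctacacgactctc
The windows are chr10:128549139-128549208 (minus strand) for Rpl41, chr10:128626477-128626546 (minus) for Rps26, chr14:18270957-18271026 (minus) for Rpl15 and chr5:115559427-115559496 (plus) for Rplp0. Those of the second group are chr4:152325686-152325755 (plus) for Rpl22, chr3:90213619-90213688 (minus) for Rps27, chr13:90923082-90923151 (plus) for Rps23 and chr9:44407674-44407743 (plus) for Rps25. Each holds a gene's annotated start with the beginning of its first exon, and an annotated start can lie some bases from the one that cells use.

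Of the 87 ribosomal protein genes, 66 had a promoter in the RefSeq table, and the start of 30.3% of these lay in a C and T run of at least 5 bases, against 9.08% of 8268 promoters of tested genes. Windows of 250 bases before to 50 bases after the start were also searched for 6 motifs on both strands, each counted on its own even where matches overlap. CTTTCC was found in 47% of the ribosomal protein promoters and 26% of those of tested genes, and CTTTTC in 25.8% and 18.3%. CCGGAAG, the core that ETS factors such as GABP bind, was found in 37.9% and 20.7%. AAGATGGC, bound by YY1, was found in 7.58% and 5.3%, the E-box CACGTG in 7.58% and 10.8%, and TATAAA in 10.6% and 6.35%. Members that were higher and lower in KO held CTTTCC in 9 of 18 and 12 of 23 promoters and CCGGAAG in 6 of 18 and 8 of 23. The C and T run at the start was found in 6 of 18 promoters of the higher and 4 of 23 of the lower members.

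Ribosomal protein genes moved both ways in KO, and mostly by little. Of 86 members tested, 23 were higher and 35 lower at a Benjamini-Hochberg adjusted p under 0.05 (limma-trend on log2(FPKM + 1), adjusted over all 10170 genes tested), and 28 were not called. Of all genes tested, 64.7% were called, 35.6% higher and 29.1% lower. Of the 549 other genes with a mean of at least 100 FPKM, a level that 75 members reached, 34.4% were called higher and 41.9% lower. The members' shares were 26.7% and 40.7%. Their median log2 fold change was -0.01, beside 0.04 for all genes tested and -0.02 for the other highly expressed genes. Both KO values lay on one side of both WT values for 70 of the 86 members, 31 above and 39 below, against 83.4% of all genes tested, 45.6% above and 37.9% below.

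Among the members, decreases reached further than increases on the log2(FPKM + 1) scale. A called decrease of more than 0.5 was measured in 7 of the 86 tested members, and no called increase passed 0.5. Of all genes tested, 8.6% were called lower and 12.8% higher by more than 0.5. The count of large decreases is thus near the share of all genes, and that of large increases is below it. The lowest log2 fold change on this scale was -1.01 and the highest 0.40. With log2(FPKM + 0.1), Rpl32l, near the filter, was called at 0.58. The subunits had like medians, -0.01 for both, with 10 of 33 members of 40S higher and 14 lower, and 13 of 52 tested members of 60S higher and 21 lower. Without KO replicate 2 the counts over all members were 20 higher and 37 lower, against 33.5% and 28.3% of all genes. Without WT replicate 1 they were 13 and 33, against 31.4% and 25% of all genes, and with median-ratio scaling 15 and 38, against 31.3% and 33.2%.

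**Figure D1:**
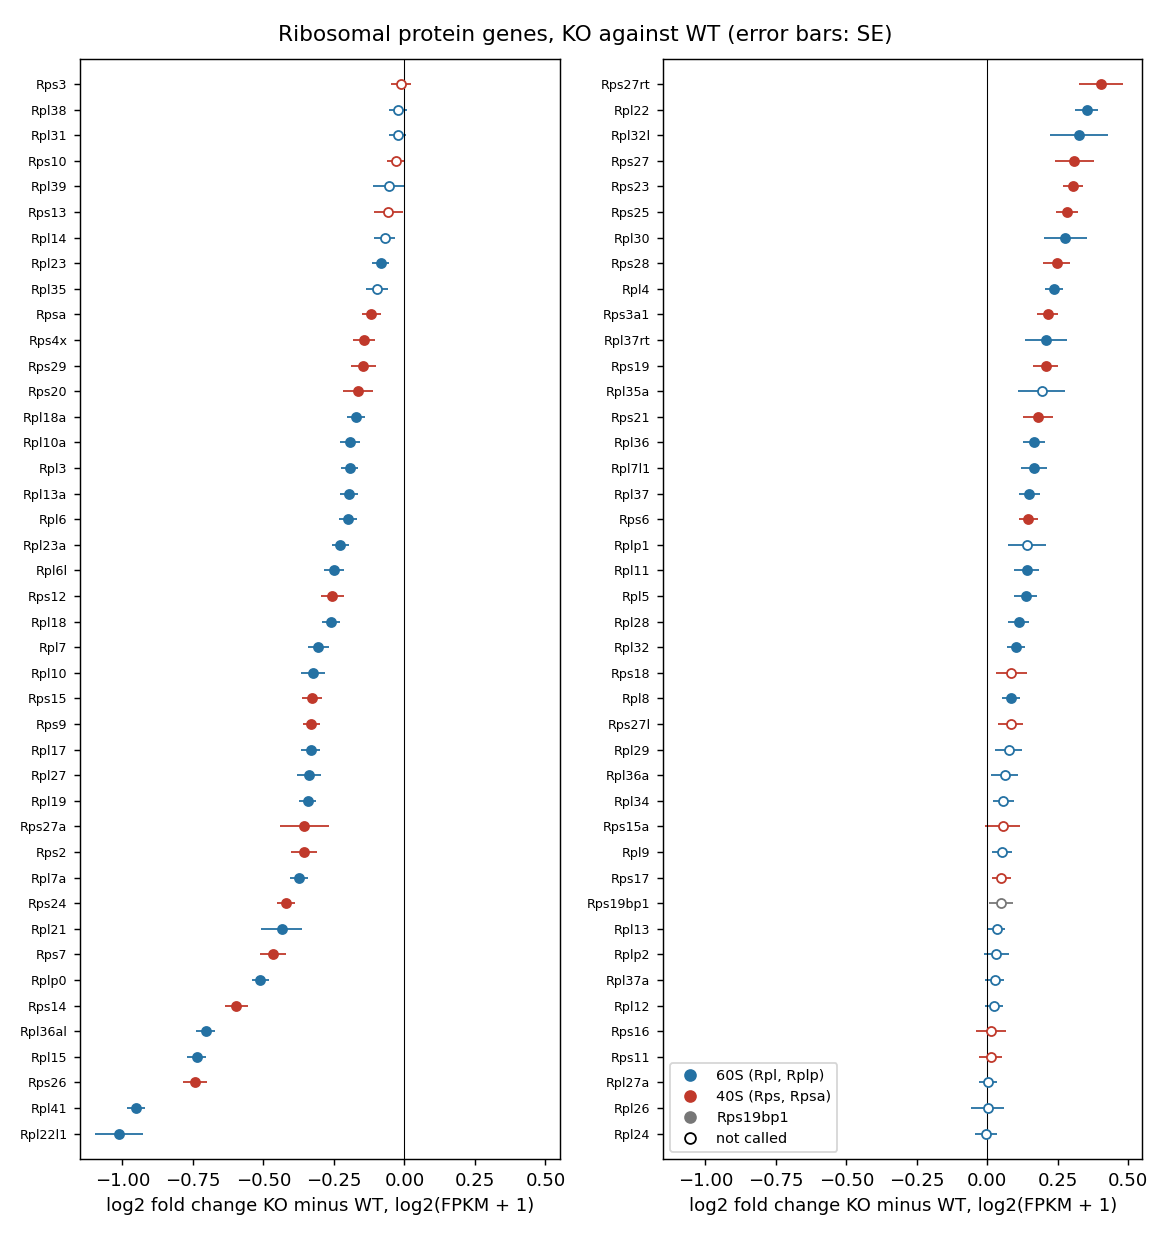
Log2 fold change, KO minus WT, of the tested members on the log2(FPKM + 1) scale, without those not reported here, ordered from the lowest at the bottom left to the highest at the top right, with bars for the SE (2 libraries per genotype) and open circles for members not called. Blue marks 60S, red 40S and grey Rps19bp1. Blue runs from -1.01 to 0.35 and red from -0.74 to 0.40.

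Together the members held a smaller share of the expression in KO. They made up 16.4% and 16.7% of the summed FPKM of all genes in the WT libraries and 15.3% and 15.5% in the KO libraries. Both KO values lay below both WT values (two-sided exact permutation p = 0.33, the smallest that 2 against 2 libraries can give). Their summed FPKM averaged 65494 ± 1339 in WT and 60833 ± 1259.98 in KO (SD, n = 2). Rpl41 and Rps26 alone went from 6126 ± 85.9 to 3349 ± 4.92 FPKM, and without them the share was 15.0% ± 0.212 in WT and 14.5% ± 0.118 in KO. The ratio of summed 40S to summed 60S FPKM was 0.621 and 0.634 in WT and 0.649 and 0.651 in KO, again without overlap (exact permutation p = 0.33).

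**Figure D2:**
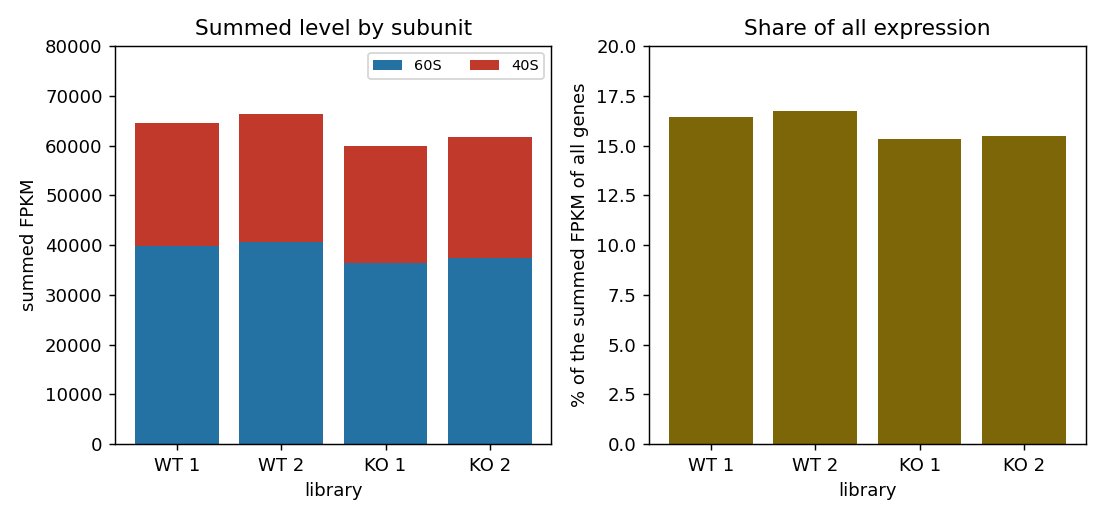
Left, summed FPKM of the 60S members (blue) and 40S members (red) in each library; right, the share of all members in the summed FPKM of all genes. Bars are single libraries and start at 0; the WT libraries stand at 16.4% and 16.7% and the KO libraries at 15.3% and 15.5%.

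Of the main copies of large subunit genes, Rpl41 and Rpl15 fell most. Rpl41, which had the highest mean level of all members, encodes a very small basic protein at the bridge between the subunits. It measured 3873 and 3849.6 FPKM in WT and 1963 and 2028 FPKM in KO. The libraries of a genotype lay close together and the groups far apart, with a 1.93-fold lower mean in KO (log2 fold change -0.95 ± 0.03 SE, adjusted p = 1.8e-06, limma-trend). Rpl15, a core protein of the large subunit, measured 275 and 276 FPKM in WT and 162 and 168 FPKM in KO. Its groups did not overlap either, and its mean was 1.67-fold lower in KO (-0.74 ± 0.03, adjusted p = 4.8e-06, limma-trend). Both decreases were called under all 16 other settings tried, which for Rpl41 gave log2 fold changes from -1.06 to -0.93.

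The ribosomal stalk, which recruits the elongation factors, did not move as one. Its base protein Rplp0 measured 1645 and 1604 FPKM in WT and 1139.7 and 1140.4 FPKM in KO, 1.42-fold lower (-0.51 ± 0.03, adjusted p = 1.6e-05, limma-trend). Its partners were not called in the main fit. Rplp1, the second most abundant member, measured 2733 and 2826 FPKM in WT and 2840.5 and 3302 FPKM in KO, so that only KO replicate 2 stood well above the others (0.14 ± 0.07, adjusted p = 0.101). On all libraries, voom on recovered reads called Rplp1 higher (0.14, adjusted p = 0.0225), as did limma-trend with a replicate block (0.14, adjusted p = 0.0189). Without KO replicate 1 it was called higher (0.25, adjusted p = 7.5e-04), and without KO replicate 2 its log2 fold change was 0.03 (adjusted p = 0.458). Rplp2 measured 1032 and 1059.9 FPKM in WT and 1026 and 1113 FPKM in KO, with overlapping groups (0.03 ± 0.04, adjusted p = 0.565), and Rpl12, which joins the stalk to the ribosome, had a log2 fold change of 0.02. Rplp2 was called higher without KO replicate 1 (0.09, adjusted p = 0.0492) and with quantile normalization (0.14, adjusted p = 0.00536), and its sign turned with median-ratio scaling and without KO replicate 2.

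The proteins that carry the 5S ribosomal RNA into the large subunit, and that bind the p53 regulator Mdm2 when free, were both called higher. Rpl5 measured 699 and 722 FPKM in WT and 757 and 805 FPKM in KO (0.14 ± 0.04, adjusted p = 0.0199, limma-trend). Rpl11 measured 349.5 and 354 FPKM in WT and 372 and 404 FPKM in KO (0.14 ± 0.04, adjusted p = 0.0268, limma-trend). These differences were small, and both calls ended when libraries were left out. For Rpl5 this was WT replicate 1 (0.11, adjusted p = 0.121). For Rpl11 it was WT replicate 1 (0.13, adjusted p = 0.099), WT replicate 2 (0.15, adjusted p = 0.0626) and KO replicate 2 (0.08, adjusted p = 0.0646). Both were also lost with median-ratio scaling, at 0.08 and 0.09. The same held with low genes kept in the fit (adjusted p = 0.111 and 0.125) and without the variance trend (adjusted p = 0.0821 and 0.0923).

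Around the exit of the peptide tunnel, where nascent chains emerge and targeting factors dock, 3 of 7 members were lower and none higher, with a median of -0.10. Of all members 40.7% were lower, so this count is near the background. The decreases were those of Rpl17 (-0.33), Rpl19 (-0.34) and Rpl23a (-0.23). Rpl23a, a docking site of the signal recognition particle and 1 of the 4 most abundant members, measured 1758 and 1761 FPKM in WT and 1491 and 1516 FPKM in KO (adjusted p = 5.7e-04, limma-trend). Rpl26, Rpl31, Rpl35 and Rpl39 were not called. Of the late-joining proteins of the large subunit, Rpl10, which completes the peptidyl transferase centre, measured 1133 and 1226 FPKM in WT and 952 and 930.2 FPKM in KO (-0.32 ± 0.04, adjusted p = 5.2e-04, limma-trend). Rpl24, at a bridge to the small subunit, measured 620.1 and 655 FPKM in WT and 651 and 620.0 FPKM in KO, and its groups overlapped (0.00 ± 0.04, adjusted p = 0.925). Its sign turned with quantile normalization and without WT replicate 2 or KO replicate 2.

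Among the increases in the large subunit was that of Rpl22. Rpl22, an RNA-binding protein that is not needed for translation as such, measured 118 and 125 FPKM in WT and 154 and 158 FPKM in KO, without overlap and 1.28-fold higher in KO (0.35 ± 0.04, adjusted p = 2.6e-04, limma-trend). Rpl30 measured 406 and 447 FPKM in WT and 478 and 557 FPKM in KO (0.28 ± 0.07, adjusted p = 0.0138). Its KO libraries lay farther apart than the higher WT and the lower KO library did, and it was not called when low genes were kept in the fit (adjusted p = 0.122). Without KO replicate 2 its log2 fold change was 0.17. Rpl32l passed the filter of a mean of at least 1 FPKM only through its KO values, so its call is a description only. It measured 0.860 and 0.780 FPKM in WT and 1.26 and 1.30 FPKM in KO, from only 16 to 29 reads per library (0.32 ± 0.10, adjusted p = 0.027). The pseudocount held this value down: with log2(FPKM + 0.1) it was 0.58, the highest of the named members (adjusted p = 0.0335). Voom on recovered reads gave 0.62 (adjusted p = 0.2) and quantile normalization 0.21 (adjusted p = 0.126), both without a call. Rpl32l fell below the filter when either KO library was left out. It was not called without WT replicate 1 (0.36, adjusted p = 0.067) or WT replicate 2 (0.29, adjusted p = 0.128).

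**Figure D3:**
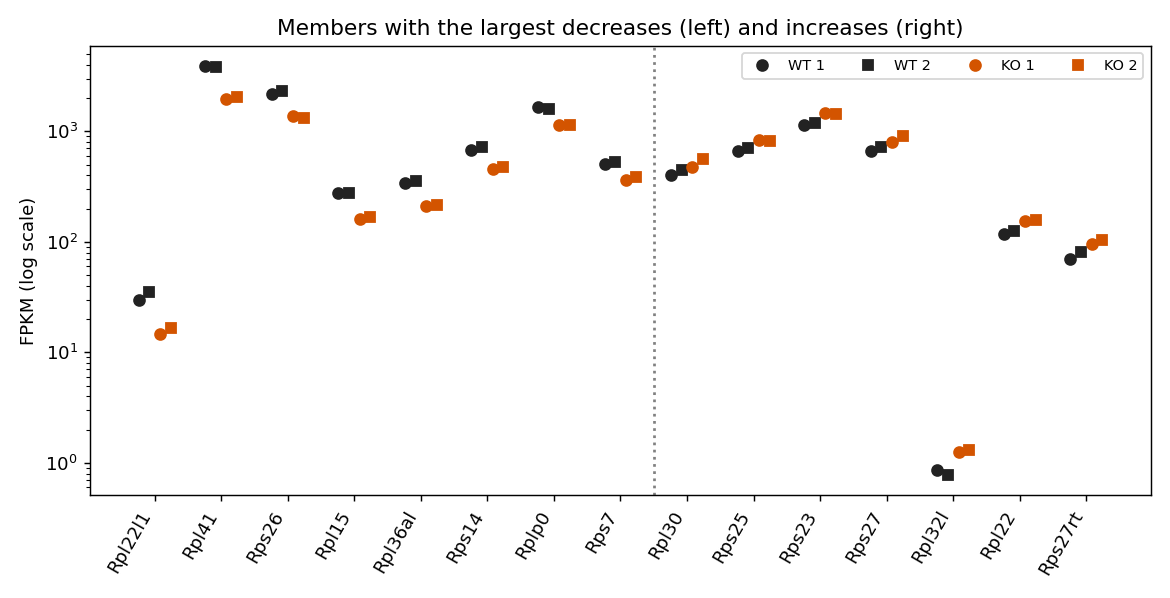
FPKM on a log axis in each library (black WT, orange KO, circles replicate 1, squares replicate 2) for the 8 called members with the largest decrease on the left and those with the largest increase that are reported here on the right. For every gene shown both KO values lie on the same side of both WT values; Rpl41 runs from 3873 and 3849.6 FPKM in WT to 1963 and 2028 FPKM in KO.

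The variant copies differed from one another. Rpl22l1, which can take the place of Rpl22 in the ribosome, had the lowest log2 fold change of all members. It measured 30.04 and 35.1 FPKM in WT and 14.6 and 16.7 FPKM in KO, 2.08-fold lower (-1.01 ± 0.09, adjusted p = 6.4e-05, limma-trend), while Rpl22 rose. The level of Rpl22l1 relative to Rpl22 was 25.5% and 28.0% in WT and 9.51% and 10.6% in KO. Rpl36al, the autosomal copy of the X-linked Rpl36a, measured 343 and 357 FPKM in WT and 213 and 215 FPKM in KO, 1.63-fold lower (-0.71 ± 0.03, adjusted p = 6.1e-06, limma-trend). Rpl36a itself was not called (0.06 ± 0.05, adjusted p = 0.289), although it was without KO replicate 1 (0.12, adjusted p = 0.0356) and with quantile normalization (0.08, adjusted p = 0.0235). The ratio of the copies was 53.8% and 53.0% in WT and 32.4% and 30.3% in KO. None of the ratio values of WT overlapped those of KO, and the exact permutation p was 0.33 for each, the smallest possible.

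Rpl7l1, a nucleolar relative of Rpl7, moved against its partner: it measured 51.9 and 55.4 FPKM in WT and 59.0 and 61.4 FPKM in KO (0.16 ± 0.05, adjusted p = 0.0162), and Rpl7 fell by 0.31 on the log2 scale (adjusted p = 3.1e-04, limma-trend). The call of Rpl7l1 ended without WT replicate 1 (0.12). It was also lost when low genes were kept in the fit (adjusted p = 0.0652), with median-ratio scaling (adjusted p = 0.0629) and without the variance trend (adjusted p = 0.0516). Rps27l, a p53 target that resembles Rps27, measured 30.5 and 31.5 FPKM in WT and 32.4 and 33.3 FPKM in KO and was not called (0.08 ± 0.04, adjusted p = 0.131). Rps27rt, a retrogene copy of Rps27, measured 69.5 and 81.7 FPKM in WT and 95.5 and 104 FPKM in KO, the largest called increase on the log2(FPKM + 1) scale (0.40 ± 0.08, adjusted p = 0.00297, limma-trend). Rps27 itself measured 660.4 and 718 FPKM in WT and 795 and 915 FPKM in KO (0.31 ± 0.07, adjusted p = 0.00601). Both calls of this pair, whose reads may be shared, were lost when low genes were kept in the fit (adjusted p = 0.0545 and 0.0826). Rpl3 (-0.19, adjusted p = 0.00122), Rpl39 (-0.05, adjusted p = 0.435) and Rps4x (-0.14, adjusted p = 0.0146) also have variant copies. Rps4x was not called without WT replicate 2 (-0.11). Its call was also lost when low genes were kept in the fit (adjusted p = 0.0972) and without the variance trend (adjusted p = 0.0676). Rpl39 was called lower without KO replicate 2 (-0.13, adjusted p = 0.0178) and its sign turned without KO replicate 1.

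The 3 members below the filter were at or near 0 in all libraries. Rpl3l, the copy of Rpl3 used in heart and skeletal muscle, measured 0.031 and 0.016 FPKM in WT and was listed at 0 in both KO libraries, including KO replicate 2 with its muscle transcripts. Rpl39l, a copy known from testis, was listed at 0 in every library but KO replicate 2, where it measured 0.031 FPKM. Rps23rg1 measured 0.016 to 0.053 FPKM.

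**Figure D4:**
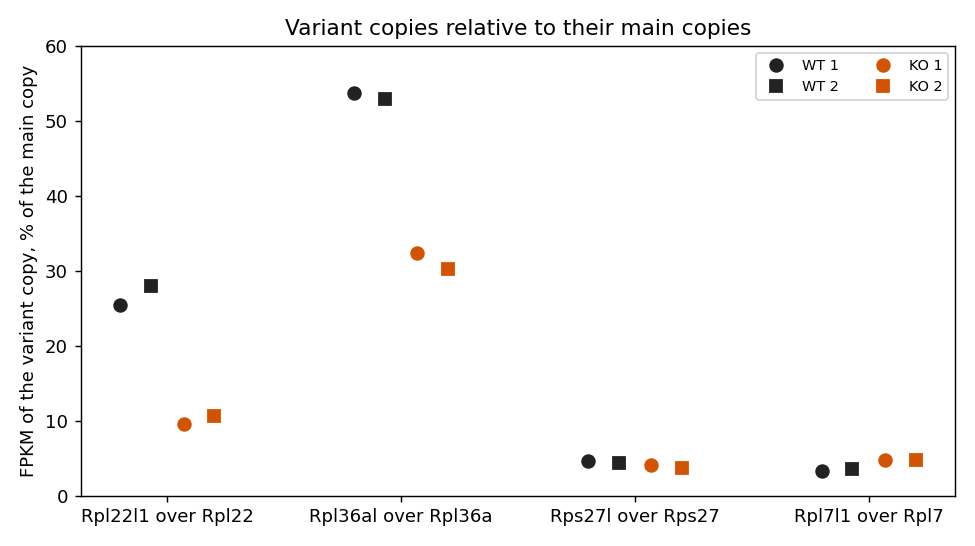
FPKM of the variant copy as a percentage of the FPKM of its main copy, 1 point per library (black WT, orange KO, circles replicate 1, squares replicate 2). The ratio of Rpl22l1 to Rpl22 stands at 25.5% and 28.0% in WT and at 9.51% and 10.6% in KO, and that of Rpl7l1 to Rpl7 is the only one of the 4 with higher values in KO.

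In the small subunit, Rps26 and Rps14 fell most. Rps26, which lines the exit of the messenger RNA and can be released from mature ribosomes in yeast, measured 2192 and 2337 FPKM in WT and 1382 and 1325 FPKM in KO. The groups stood far apart, with a 1.67-fold lower mean in KO (-0.74 ± 0.04, adjusted p = 1.1e-05, limma-trend). Rps14, the gene whose loss is linked to the anaemia of the 5q- syndrome, measured 680.4 and 726 FPKM in WT and 458 and 472 FPKM in KO, 1.51-fold lower (-0.60 ± 0.04, adjusted p = 2.4e-05, limma-trend). Rps7, needed for processing of the small subunit RNA, measured 504 and 533 FPKM in WT and 362 and 389 FPKM in KO, 1.38-fold lower (-0.47 ± 0.05, adjusted p = 1.2e-04, limma-trend). These decreases were called under all 16 other settings.

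Of the 5 members along the messenger RNA channel, 3 were lower, 1 higher and 1 not called, too few to set apart from the 40.7% lower and 26.7% higher of all members. Rps26 and Rps2 (-0.36) were among the lower ones, and Rps28 (0.25) was the higher one. Rps3, at the channel entry, measured 514 and 521 FPKM in WT and 503 and 524 FPKM in KO, with overlapping groups (-0.01 ± 0.03, adjusted p = 0.78). Its neighbour Rps10, another late-joining protein, measured 840.4 and 844 FPKM in WT and 829 and 821 FPKM in KO (-0.03 ± 0.03, adjusted p = 0.406). Rps10 was called lower with median-ratio scaling (-0.08, adjusted p = 0.0399). The signs of Rps3 and Rps10 turned with quantile normalization, and that of Rps3 also without KO replicate 1. Of all 8 members listed as late-joining in both subunits, 3 were lower, none higher and 5 not called, again near the 40.7% of all members that were lower.

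Increases in the small subunit were smaller than these decreases. Rps23, a protein of the decoding centre, measured 1140.0 and 1193 FPKM in WT and 1453 and 1429 FPKM in KO, 1.23-fold higher (0.30 ± 0.04, adjusted p = 2.6e-04, limma-trend). Rps25, which many viral internal ribosome entry sites need, measured 657 and 703 FPKM in WT and 827 and 825 FPKM in KO (0.28 ± 0.04, adjusted p = 6.6e-04, limma-trend). The groups of Rps23 and Rps25 did not overlap. Rps6, the substrate of the S6 kinases downstream of mTOR, measured 654 and 634 FPKM in WT and 705 and 720.2 FPKM in KO (0.15 ± 0.03, adjusted p = 0.00663, limma-trend), and was not called without WT replicate 2 (0.12, adjusted p = 0.0698). Rpsa, which also occurs as a laminin receptor, measured 1554 and 1589.6 FPKM in WT and 1432 and 1467 FPKM in KO (-0.12 ± 0.03, adjusted p = 0.0159). It was not called without WT replicate 1 (-0.13) or WT replicate 2 (-0.10). The call of Rpsa was also lost with quantile normalization (-0.03, adjusted p = 0.175), with low genes kept in the fit (adjusted p = 0.117) and without the variance trend (adjusted p = 0.0831).

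Rps27a, made as a fusion with ubiquitin, showed the widest gap within a genotype of the 86 tested members. It measured 557 and 688 FPKM in WT, a ratio of 1.24, and 482 and 487 FPKM in KO (-0.35 ± 0.09, adjusted p = 0.00878, limma-trend), and its call was lost when low genes were kept in the fit (adjusted p = 0.102). Its log2 fold change was -0.51 without WT replicate 1 and -0.20 without WT replicate 2. Some ribosomal proteins carry symbols outside the rule. Fau, whose small subunit protein is made with a ubiquitin-like part, measured 611 and 603 FPKM in WT and 510.5 and 554 FPKM in KO (-0.19 ± 0.04, adjusted p = 0.00656). Its call was lost when low genes were kept in the fit (adjusted p = 0.0646). Rack1, the signalling scaffold on the small subunit, was not called (0.06, adjusted p = 0.132). It was called higher without KO replicate 1 (adjusted p = 0.0435) and with quantile normalization (0.11, adjusted p = 0.013). Rps19bp1 was not called (0.05, adjusted p = 0.337).

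Most of the listed genes that work with ribosomal proteins or with the ribosome in elongation and termination fell. Of 14 chaperones and import receptors, 11 were lower, 2 higher and 1 not called, with a median of -0.21. Of all genes tested, 29.1% were lower and 35.6% higher. Of the other genes with a mean of at least 100 FPKM, 41.9% were lower and 34.4% higher. The gene lists were chosen with earlier results of these data known, so their counts are a description only. The import receptor Kpnb1 measured 210.3 and 213 FPKM in WT and 114 and 109.6 FPKM in KO (-0.92, adjusted p = 2.4e-06, limma-trend). Npm1, the nucleolar chaperone nucleophosmin, measured 1588 and 1648 FPKM in WT and 891 and 906 FPKM in KO (-0.85, adjusted p = 2.9e-06, limma-trend). Ipo5, another import receptor, was lower by 1.72-fold (-0.78, adjusted p = 5.2e-06). Of 10 elongation and termination factors, 8 were lower and 2 not called, with a median of -0.35. Eif5a, which helps ribosomes past stalling sequences, measured 842 and 840.1 FPKM in WT and 517 and 538 FPKM in KO (-0.67, adjusted p = 6.7e-06, limma-trend). Eef2, the translocase, measured 1574 and 1554 FPKM in WT and 1110.3 and 1092 FPKM in KO (-0.51, adjusted p = 1.6e-05, limma-trend). Etf1, a release factor, had a log2 fold change of -0.47 (adjusted p = 4.6e-05).

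Other messenger RNAs with a terminal oligopyrimidine tract were lower in 8 of 16 cases, higher in 2 and not called in 6, with a median of -0.12. Of the other genes with a mean of at least 100 FPKM, 41.9% were lower and 34.4% higher. The count of lower genes in the list is near that share, and the count of higher ones is below it. Npm1, Nap1l1, Eef1a1, Eef1b2, Eef1g and Eef2 also belong to the lists of chaperones or elongation factors above, so these lists are not separate. After Npm1 and Eef2, the third gene by adjusted p was Vim, the intermediate filament vimentin (-0.58, adjusted p = 1.7e-05, limma-trend). Of 15 genes that control the ribosomal protein messages, 4 were lower, 2 higher and 9 not called. The lower ones were near the 29.1% of all genes tested that were lower, and the higher ones below the 35.6% that were higher. Larp1, which binds the tract and holds these messages back when mTOR is off, fell by 0.40 on the log2 scale (adjusted p = 2.0e-04). Of the translational repressors that mTOR inactivates, Eif4ebp1 was higher (0.34, adjusted p = 2.7e-04) and Eif4ebp2 lower (-0.41, adjusted p = 2.8e-04). In the list around the 5S particle and Mdm2, 3 of 6 tested genes were lower and 1 higher, too few to set apart from all genes tested. The assembly factor Rpf2 (-0.58, adjusted p = 1.1e-04), the p53 inhibitor Mdm4 (-0.30, adjusted p = 0.00219) and the assembly factor Rrs1 (-0.17, adjusted p = 0.00774) were the lower ones.

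The members' changes went along in part with the position of the genes. Over the other genes tested, the median log2 fold change of a chromosome ran from -0.38 on chromosome 14, with 236 of 329 genes called lower and 15 higher, to 0.28 on chromosome 13, with 31 of 370 lower and 240 higher. Between replicates of a genotype no chromosome median departed from 0 by more than 0.0104 in WT or 0.00877 in KO. On the chromosomes with a median of -0.2 or less, all 7 members were lower, with a median of -0.47. These were Rpl15 and Rps24 on chromosome 14, Rpl36al, Rps7 and Rps29 on chromosome 12, and Rps14 and Rpl17 on chromosome 18. Of the other genes on chromosomes 12 and 18, 199 of 358 and 128 of 229 were lower, and 53 and 13 higher. On chromosomes 9, 13 and 17, with medians of 0.2 or more, 7 of 16 members were higher, 3 lower and 6 not called, with a median of 0.11. Of the other genes there, 333 of 584, 240 of 370 and 309 of 518 were higher, and 68, 31 and 52 lower. The 62 members elsewhere held 16 higher and 25 lower ones.

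Across 85 tested ribosomal protein genes the log2 fold change and the median of the gene's chromosome had a Pearson's r of 0.53 and a Spearman's rho of 0.53. Members on 1 chromosome share 1 value of the latter, there were 19 such chromosomes, and all values came from the same 4 libraries. With the 10 nearest tested genes on each side in place of the chromosome, r was 0.54, and over 548 other genes of at least 100 FPKM the chromosome relation had an r of 0.32. Leaving out each library gave an r from 0.53 to 0.57. The SD of the members' log2 fold changes was 0.29, and 0.25 after the chromosome median was subtracted. Rpl22l1 on chromosome 3 and Rplp0 on chromosome 5 fell although the medians of their chromosomes were 0.15 and 0.10, and Rpl41 and Rps26 lie on chromosome 10, where the median was -0.08. The part of the chromosome-wide differences in the members' changes was not tested. With 2 libraries per genotype and no label on clones, the genotype and a difference between the cultures cannot be told apart.

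**Figure D5:**
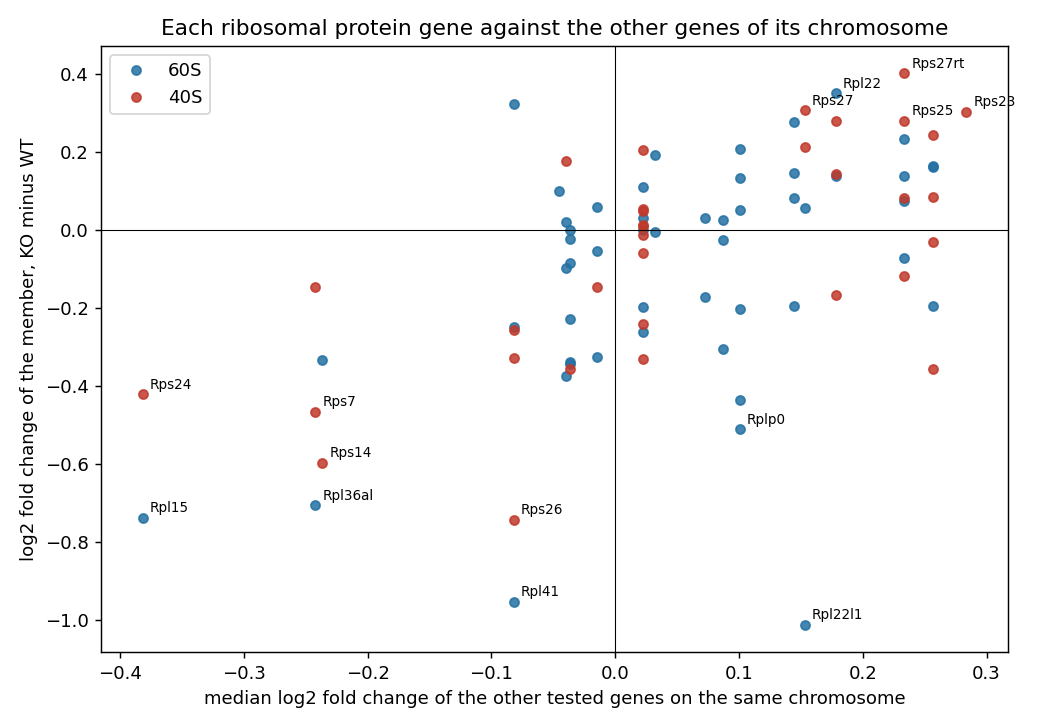
Log2 fold change of 85 ribosomal protein genes (red 40S, blue 60S) against the median log2 fold change of the other tested genes on the same chromosome. Members on chromosomes 12, 14 and 18, at the left, all lie below 0, while Rpl22l1, Rplp0, Rpl41 and Rps26 lie well below the median of their chromosome.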

How the data were processed

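RNA-seq was made from total RNA of WT and Dhodh KO 4T1 cells, with 2 libraries per genotype. The authors deposited 1 table of FPKM values per gene and library. The submitters' processing notes name fastp, HTSeq and the build GRCm39; no source used here gives the aligner, the use of strand or the handling of reads shared by copies. Members and gene lists were chosen with earlier results of these data known.

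From the deposited FPKM, log2(FPKM + 1) was computed for the 10170 genes with a mean of at least 1 FPKM, and KO was compared with WT by limma-trend (limma 3.58.1, R 4.3.3), two-sided, with Benjamini-Hochberg adjustment over all genes tested. A fold change on this scale understates that of low genes. Summed levels were compared by exact permutation tests over libraries. Members with the largest changes (8 each way), the 4 most abundant, those below the filter, and members fixed by role or variant copy were named, with up to 3 called genes per list by adjusted p. A few of these genes are not reported here by name, but remain in the counts.

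Whole reads (within 0.002 of a whole number) were recovered for 16694 of 16695 genes, and limma's voom was run on them as an added alternative. Chromosomes and promoters came from RefSeq tables of build GRCm38.p6, matched by Entrez ID for 99.3% of genes; 68 of 89 members had a promoter. Only names, chromosomes and order were used from that build besides the sequences printed. On simulated data of 10170 genes with 50 changed at each size, 8 were called at a log2 change of 0.25, 33 at 0.5, 38 at 1 and 50 at 2, with 4 false calls. Far fewer genes were changed there than the 64.7% called in the real data. The adjustment is therefore stricter in the simulation, and its rates do not carry over to the members. Alternatives changed the pseudocount, filter, scaling, variance model, fold threshold and replicate block, and left out each library.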

Additional observations from a re-analysis of the deposited data

How the results depend on the processing

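Depth did not limit the abundant members, but calls of small changes rest on 2 libraries per genotype. The count of higher members was 23 and became 9 with no filter on low values (29 lower; of all genes 20% higher and 15.8% lower), 15 with median-ratio scaling (38 lower, 28.3% of calls higher against 39.7%), 14 without the trend (34.7% of all genes), and 0 when a log2 change beyond 0.25 was tested, where 11 in place of 35 were lower (of all genes 15.7% higher and 11.7% lower). The cause was not tested. Median-ratio scaling, which shifted the median of all genes from 0.0389 to -0.0083, moved the median of members from -0.0082 to -0.0604. The log2 ratio of the summed level, -0.107 unscaled beside -0.1085 for the share, was -0.1584 under it. Quantile normalization gave 28 higher and 33 lower of 86 members, against 30.6% higher and 33.4% lower of all genes. Under it the share of higher members was near that of all genes. Leaving out 1 library gave 13 (without WT replicate 1) to 28 (without KO replicate 1) higher members, 30 to 37 lower, a median of -0.036 to 0.0085, a log2 ratio of the share of -0.1221 to -0.0948 and of the subunit ratio of 0.0355 to 0.0655.

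Among the named genes, signs turned for members that were not called: Rplp2 (-0.0214 with median-ratio scaling, -0.0281 to 0.0897 without 1 library), Rpl24 (0.016 with quantile normalization, -0.044 to 0.0344 without 1 library, with 0.0299 without KO replicate 2), Rps3 (0.0185 with quantile normalization, -0.0412 to 0.0178 without 1 library), Rps10 (0.0037 with quantile normalization) and Rpl39 (-0.1339 to 0.0261 without 1 library). Of 28 named genes that were called, 16 stayed called in all 15 settings other than the fold threshold, where 20 lost their call. Voom on recovered reads, chosen after seeing the data, gave 24 higher and 36 lower members, against 37.1% and 30.1% of all genes. Of all genes tested, 27.3% (fold threshold) to 69.5% (mean of at least 5 FPKM) were called across the settings.

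The fit with the replicate block gave 25 higher and 36 lower members, against 36.2% and 29.5% of all genes, and Rplp1 was called (adjusted p = 0.0189). Deviations of same-numbered libraries had a correlation of 0.0463 over all genes and 0.294 over the members. No label ties the 2 numbers to a batch or day, so the main fit left the libraries unpaired. Replicate 2 lay above replicate 1 for most members in both genotypes, and members that shift together do not give independent calls. Whether same-numbered libraries share a source was not tested. The alternatives for count tables, edgeR and DESeq2, were not run. The table holds FPKM, and voom was the only method run on the recovered reads.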

Other observations

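Replicate 2 lay above replicate 1 for 73 of the 86 tested members in WT and for 70 of 86 in KO, against 49.5% and 50.01% of all genes tested. The median differences were small, 0.04 on the log2 scale in both genotypes.

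Rpl41 and Rps26, the most abundant members that fell, are close neighbours on chromosome 10, with 2 other tested genes between them in the gene order of RefSeq. These were looked at after the values of the members were seen. Pa2g4, a growth regulator that binds ribosomes, measured 242 and 235 FPKM in WT and 148 and 149 FPKM in KO (-0.68, adjusted p = 6.1e-06, limma-trend). Erbb3, a receptor of the EGF receptor family, measured 3.46 and 3.66 FPKM in WT and 1.95 and 1.99 FPKM in KO (-0.62, adjusted p = 5.3e-04, limma-trend). Of the 12 other tested genes in the stretch, up to 5 beyond each end, 5 were lower and 4 higher. Pa2g4 and Erbb3 are among the lower ones. Of all genes tested, 29.1% were lower and 35.6% higher. A cause shared by these neighbours was not tested.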
